A study of Oryza sativa with 12 samples.

Results

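The response of Dongnong422 rice leaves to cold at the booting stage was examined in long non-coding RNAs (lncRNAs). Dongnong422 is a cultivar of rice (Oryza sativa), and booting is the stage at which the young panicle swells inside the sheath of the flag leaf. The comparison uses 6 of the 12 libraries of the series, the 3 labelled 17 C and the 3 labelled control for this cultivar, and the remaining libraries belong to another cultivar. Of 1485 listed lncRNA transcripts, 1359 had a mean of at least 0.1 FPKM over these 6 libraries and were tested. FPKM corrects a fragment count for how long the transcript is and how many fragments of that library were mapped.

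Cold plants were kept in an incubator at 17 °C for 13 days, under a cycle of 16 h light and 8 h dark, after growth in natural conditions. The labels attach that treatment text to the control libraries as well, so it is not said where or at what temperature the controls stood, and temperature and incubator cannot be told apart. A single leaf was taken at random from each bucket, and nothing says how plants correspond to replicates, so the p-values reflect only how far these samples scatter, which may be technical. Bulk leaf RNA also cannot tell fewer cells of a type from less RNA per cell. The tables carry no gene symbols, positions or sequences, so transcripts are given by identifier and locus, and neither the leaf label nor the genes near a transcript were checked.

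lncRNAs are transcripts with little or no capacity to encode protein, and they can act on genes close to where they are made, recruit chromatin-modifying complexes or bind microRNAs. Long intergenic lncRNAs (lincRNAs) lie between protein-coding genes. Antisense lncRNAs are read from the strand opposite another gene and can alter transcription of that gene, as the cold-induced antisense transcripts of the floral repressor FLC do in Arabidopsis. In rice, low temperature at the booting stage disturbs pollen development and lowers grain set.

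Libraries of a group were on the whole more alike than libraries of different groups. Pearson correlations on log2(FPKM + 0.1) were 0.834 to 0.846 among control libraries, 0.865 to 0.885 among cold libraries and 0.771 to 0.837 between them, and the first principal component (37.0% of the variance) placed the controls at −22.7 to −15.8 and the cold libraries at 14.1 to 26.2. Control replicate 2 correlated as closely with cold replicate 1 (0.837) as with control replicate 1 (0.834), and stood apart from the rest on the second component (19.6% of the variance). Each library had 1384 to 1414 listed transcripts above 0, with a median of 0.588 to 0.677 FPKM in control and 0.553 to 0.585 FPKM in cold libraries. A single transcript, LNC_000712, held 90.4% to 96.0% of the FPKM listed for a library, with its highest share in cold replicate 2. It is listed as a lincRNA, but without a sequence that class could not be checked. What kind of RNA these very high values come from therefore stays unknown. Read numbers could not be recovered from the FPKM values, so the depth behind each library is unknown.

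In the cold, 2 lncRNAs rose and 5 fell among the 1359 tested, 0.515% in all (0.147% up and 0.368% down), by limma with Benjamini-Hochberg adjustment at 0.05. The pair that rose, LNC_001271 and LNC_001111, were lincRNAs, each the only listed transcript of its locus. Of the 5 that fell, LNC_000185, LNC_000052, LNC_000861 and LNC_000574 were antisense lncRNAs and LNC_001381 was a lincRNA. No function is annotated in the tables for any of them. LNC_000861 lay outside the rule by which transcripts are named here and was named after its values were seen.

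LNC_001271 (XLOC_050154) stood at 0.0251, 0.0168 and 0.0240 FPKM in control replicates 1 to 3 and at 0.983, 1.66 and 1.03 FPKM in the cold ones. It was close to 0 in all control libraries, and the lowest cold library lay far above the highest control. The mean went from 0.0219 ± 0.00453 to 1.23 ± 0.380 FPKM (SD, n = 3 each), a log2 change of 3.41 on the log2(FPKM + 0.1) scale (SE 0.373, limma adjusted p = 0.0195). That scale understates the change of so low a transcript. With a pseudocount of 1 FPKM the log2 change was 1.11 and with 0.01 FPKM it was 5.24.

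LNC_001111 (XLOC_042844) was measured at 0.549, 0.670 and 0.891 FPKM in the control and at 4.60, 5.66 and 3.67 FPKM after cold. The lowest cold library lay far above the highest control library. Its log2 change was 2.56 (SE 0.304, limma adjusted p = 0.0195), or 5.90-fold in FPKM + 0.1. With any library left out limma did not call it (adjusted p = 0.0534 to 0.0959).

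LNC_000185 (XLOC_009332) had the largest fall. It stood at 8.65, 59.3 and 30.6 FPKM in the control libraries, which differed widely among themselves, and at 0.589, 0.257 and 0.145 FPKM in the cold. The lowest control library still lay far above the highest cold one. The log2 change was −6.01 (SE 0.721, limma adjusted p = 0.0195), or 64.2-fold lower in FPKM + 0.1.

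LNC_000052 (XLOC_003075) was at 2.71, 1.33 and 2.98 FPKM in the control libraries, and was listed at 0, 0 and 0.0978 FPKM in the cold ones. A 0 in such a table need not mean that no read was found, since an estimate can also fail. The log2 change was −4.20 (SE 0.460, limma adjusted p = 0.0195). It was −1.66 when 1 FPKM was added, and −6.65 when 0.01 FPKM was added, where limma made no call (adjusted p = 0.0735). Nor was LNC_000052 called by limma among transcripts with a mean of at least 1 FPKM (adjusted p = 0.0514).

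The 3 other falls were in loci with more than 1 listed transcript. LNC_001381 (XLOC_053929) went from 2.04, 1.91 and 2.32 FPKM to 0.336, 0.0601 and 0.264 FPKM, a log2 change of −2.89 (SE 0.428, limma adjusted p = 0.0431). LNC_000861 (XLOC_032177) went from 2.11, 2.05 and 2.77 FPKM to 0.420, 0.191 and 0.382 FPKM, a log2 change of −2.52 (SE 0.337, adjusted p = 0.0322). LNC_000574 (XLOC_022039) went from 5.80, 5.68 and 4.45 FPKM to 1.55, 1.13 and 1.41 FPKM, a log2 change of −1.89 (SE 0.267, adjusted p = 0.0383). In each of them all control libraries lay above all cold libraries by a wide gap. For these and the other called lncRNAs the call rests on the same values, so lack of overlap adds no support. None of the 3 was called with a pseudocount of 0.01 FPKM (adjusted p = 0.0756, 0.0708 and 0.0508 for LNC_001381, LNC_000861 and LNC_000574) or with any library left out (0.0778 to 0.152 over the 3). With median-ratio scaling LNC_001381 and LNC_000574 were not called (adjusted p = 0.0594 each), with quantile normalization LNC_000574 was not (0.0588), and LNC_001381 was not with no filter (0.0542) or at a mean of at least 1 FPKM (0.0514).

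**Figure D1:**
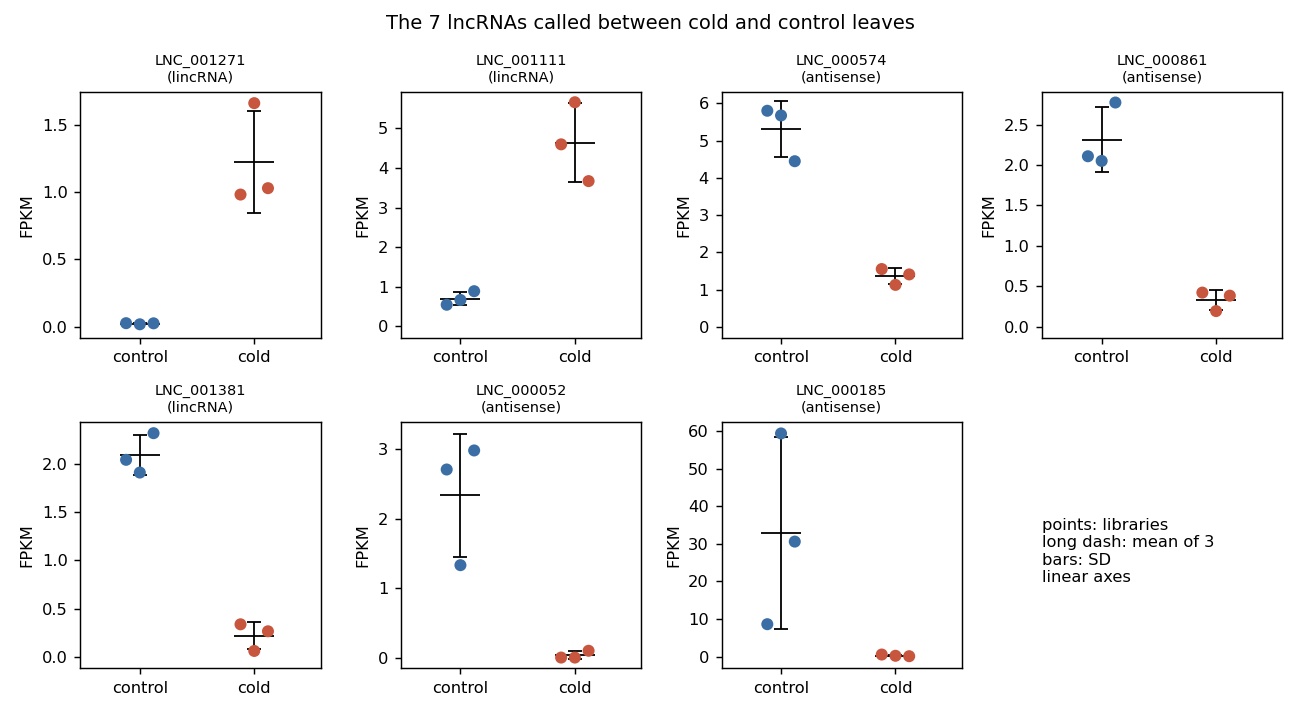
FPKM (linear axes) of the 7 lncRNAs called between cold and control Dongnong422 leaves, with 1 point per library, the mean of 3 as a long dash and bars of 1 SD. In every panel the 3 cold points lie on one side of the 3 control points, and the control points of LNC_000185 spread from 8.65 to 59.3 FPKM.

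The median log2 change of all 1359 lncRNAs was −0.16, with 793 below 0 and 566 above, and median-ratio scaling between libraries brought it to 0.0024. Relative to that median, the rises were 3.57 for LNC_001271 and 2.72 for LNC_001111, and the falls ran from −1.73 for LNC_000574 to −5.84 for LNC_000185. Few of these calls held when a library was left out. Without control replicate 3, cold replicate 1 or cold replicate 3, limma called 0 lncRNAs (250, 249 and 283 before adjustment, p under 0.05). Without control replicate 1 it called 1, LNC_000185. Without control replicate 2 it called 5, of which 3 were among the 7 (LNC_000052, LNC_000185 and LNC_001271), and without cold replicate 2 it called 1 that was not among them. Each log2 change kept its sign without any library, and that of LNC_000185 ran from −6.77 to −5.39.

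Other thresholds were passed by more lncRNAs. At an unadjusted p under 0.05 there were 320 (23.5%), 132 higher and 188 lower in the cold. That split turned to 173 higher and 146 lower with median-ratio scaling, and to 176 and 143 with quantile normalization. At an adjusted p under 0.1, a limit taken after the results were seen, there were 97 (7.14%), 39 higher and 58 lower. The median standard error of a log2 change was 0.457. An exact permutation test of a single transcript in 3 against 3 libraries cannot go below p = 0.1.

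For a description that needs no test, lncRNAs were counted whose 3 cold libraries all lay on one side of the 3 control libraries with a mean difference of at least 2-fold. There were 271 such separated lncRNAs (19.9%), 106 higher (7.8%) and 165 lower (12.1%) in the cold. Median-ratio scaling turned that split to 133 higher and 124 lower, and a pseudocount of 1 FPKM left 22 and 34. The median log2 change was 1.52 among those higher and −1.51 among those lower, and 20 and 31 of them differed at least 4-fold. Lack of overlap with no limit on size was found for 420 lncRNAs (30.9%).

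**Figure D2:**
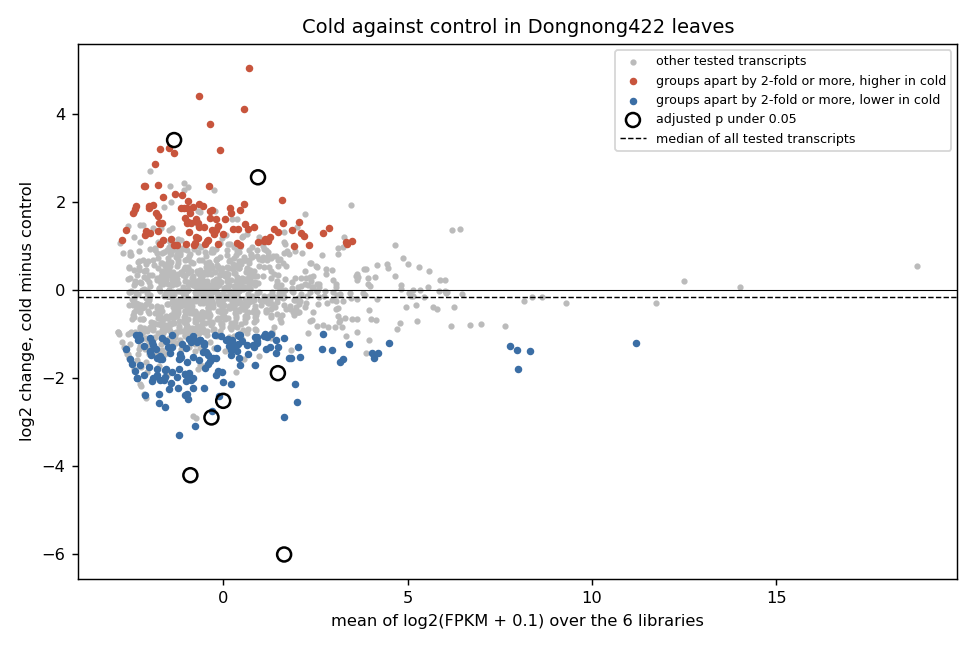
Log2 change (cold minus control) of each of the 1359 tested lncRNAs against its mean log2(FPKM + 0.1) over the 6 libraries. Coloured points are the 106 higher and 165 lower lncRNAs whose groups did not overlap and differed at least 2-fold, rings mark the 7 called ones, and the dashed line is the median change of −0.16.

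Among separated lincRNAs that were not called, the 2 with the largest rise were LNC_000635 and LNC_000956. LNC_000635 (XLOC_023865) stood at 2.12, 0 and 0 FPKM in control and 3.95, 28.0 and 6.81 FPKM in cold libraries (log2 change 5.04, limma adjusted p = 0.0934). Control replicate 1 was the only control library above 0, and cold replicate 2 stood far above the other two cold libraries. LNC_000956 (XLOC_035220) stood at 0, 0.166 and 0 against 2.90, 8.53 and 0.888 FPKM (log2 change 4.41, adjusted p = 0.0553). As the only transcript of its locus it has the same values in the fit of loci described further on, where it was called (adjusted p = 0.0417).

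The 2 with the largest difference downwards were LNC_000830 and LNC_000804. LNC_000830 (XLOC_031095) stood at 1.98, 1.32 and 1.64 FPKM in control libraries and at 0, 0.742 and 0 in the cold (log2 change −3.09, limma adjusted p = 0.0956). Its cold value rested on replicate 2, the only cold library above 0. Without that library every cold value left was a listed 0, and limma called it (log2 change −4.11, adjusted p = 0.0358). With any other library left out limma did not call it (adjusted p = 0.151 to 0.221). LNC_000804, 1 of 5 transcripts of XLOC_030014, stood at 8.00, 6.94 and 10.7 FPKM against 1.38, 0.276 and 2.72 FPKM (log2 change −2.88, adjusted p = 0.0849).

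Among separated antisense lncRNAs that were not called, LNC_000499 (XLOC_019310) and LNC_000121 (XLOC_006256) had the largest differences upwards. LNC_000499 was under 0.001 FPKM in every control library and at 0.347, 2.10 and 0.704 FPKM in the cold (log2 change 3.21, limma adjusted p = 0.0634). LNC_000121 stood at 0, 0.0312 and 0.0891 FPKM in control and 0.818, 0.587 and 2.39 FPKM in cold libraries (log2 change 3.10, adjusted p = 0.0553). LNC_000121 is also the only transcript of its locus and was called in the fit of loci (adjusted p = 0.0417), whereas the locus of LNC_000499 was not (0.98). Both transcripts were near 0 in control leaves and varied widely among cold libraries.

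Downwards, the largest differences were those of LNC_001048 (XLOC_039629) and LNC_001057 (XLOC_040119). LNC_001048 stood at 1.80, 0.543 and 1.96 FPKM in control libraries, and in the cold it was at 0.174 FPKM in replicate 2 and under 0.001 FPKM in the other two (log2 change −3.28, limma adjusted p = 0.0578). Its locus, with 3 listed transcripts, was called in sum (log2 change −3.39, adjusted p = 0.0398). LNC_001057 stood at 0.448, 2.28 and 1.23 against 0.105, 0.141 and 0.109 FPKM (log2 change −2.46, adjusted p = 0.0786). Its cold libraries lay close together, while its control libraries spread widely.

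Both classes of lncRNA held transcripts of either direction. Of 780 tested lincRNAs, 64 (8.21%) were separated upwards and 88 (11.3%) downwards, with 2 that rose and 1 that fell, and of 579 antisense lncRNAs 42 (7.25%) were separated upwards and 77 (13.3%) downwards, with 0 that rose by limma (52 at an unadjusted p under 0.05 and a change above 0) and 4 that fell. The median log2 change was −0.14 for lincRNAs and −0.18 for antisense lncRNAs, beside −0.16 for all. By mean level, 160 of 806 lncRNAs under 1 FPKM were separated, 94 of 456 from 1 to 10 FPKM, and 17 of 97 at 10 FPKM or more. These shares (19.9%, 20.6% and 17.5%) lie near the 19.9% of all lncRNAs, and differences between the subsets were not tested.

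Where several transcripts share a locus, how fragments are assigned to each is an estimate. The listed FPKM was therefore also summed per locus and tested in the same way. Of 981 loci, 35 were called (3.57%). Of these, 12 rose (1.22%) and 23 fell (2.34%). Those that rose were 8 lincRNA and 4 antisense loci, and those that fell were 7 lincRNA loci, 15 antisense loci and 1 with both classes, out of 563, 405 and 13 loci tested. Log2 changes ran from 1.31 to 4.41 among the rises, with a median of 1.85, and from −1.06 to −6.01 among the falls, with a median of −1.90. In all 35 the cold and control libraries did not overlap, but the calls rest on the same values, so this adds no support. Of all 981 loci, 197 were separated, that is, without overlap and at least 2-fold apart. Relative to the median of all loci, −0.14, the rises ran from 1.44 to 4.55 and the falls from −0.92 to −5.87.

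**Figure D3:**
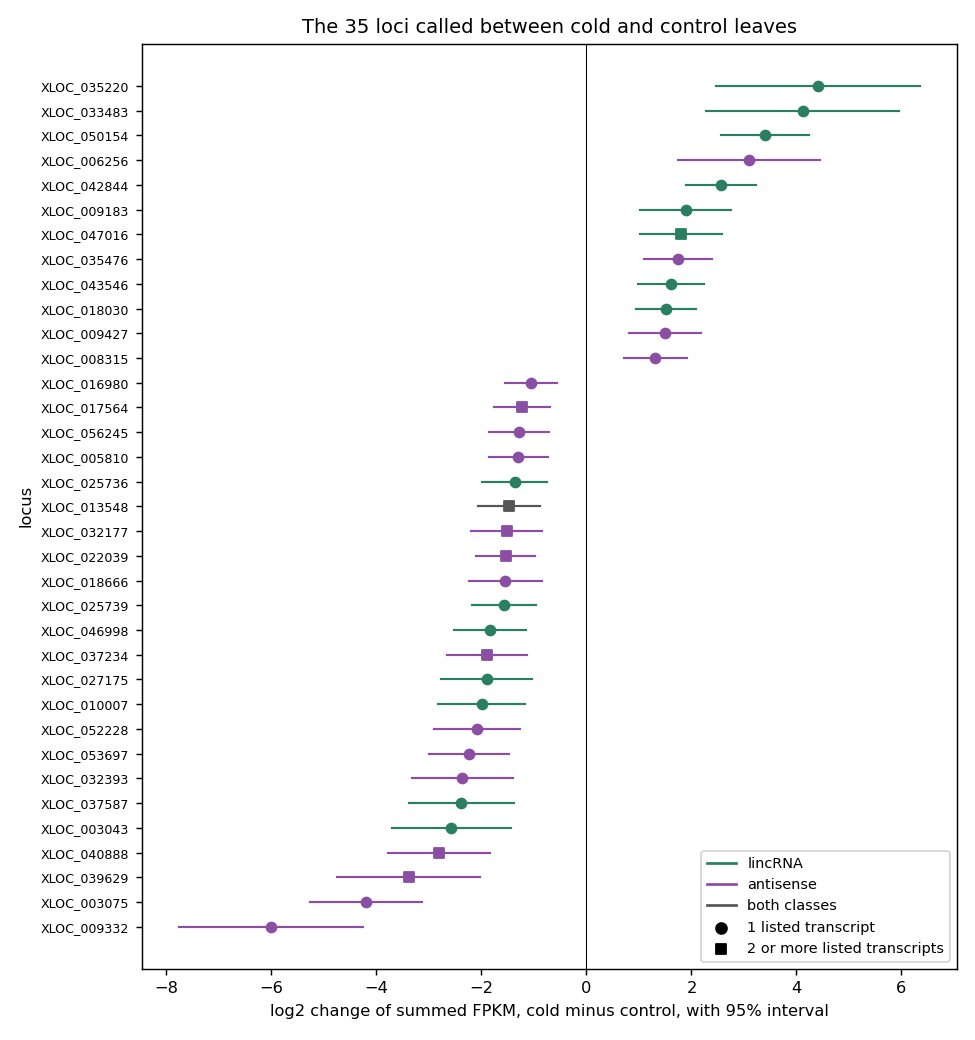
Log2 change of the summed FPKM, cold minus control, of the 35 called loci with 95% limma intervals, coloured by class, with circles for loci of 1 listed transcript and squares for loci of 2 or more. The 12 rises lie between 1.31 and 4.41 and the 23 falls between −6.01 and −1.06.

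The called loci named next were chosen after their values were seen. The lincRNA locus XLOC_018030 (LNC_000475) rose from 1.89, 2.00 and 1.38 FPKM in control to 5.31, 4.65 and 5.49 FPKM in cold leaves (log2 change 1.51, limma adjusted p = 0.0398). The lincRNA locus XLOC_033483 (LNC_000882) rose from 0.868, 0.364 and 0 FPKM to 5.27, 6.27 and 6.79 FPKM (log2 change 4.12, adjusted p = 0.0417). Its means were 0.411 ± 0.436 and 6.11 ± 0.771 FPKM (SD), so the control libraries spread more relative to their mean. The antisense locus XLOC_008315 (LNC_000169) rose from 1.57, 2.12 and 1.39 FPKM to 4.17, 4.89 and 3.84 FPKM (log2 change 1.31, adjusted p = 0.0423). Each of these loci has 1 listed transcript.

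Among the falls, only the locus of LNC_000185 had a higher mean over the 6 libraries than the lincRNA locus XLOC_025739 (LNC_000691), at 17.2, 17.0 and 15.0 FPKM in control and 4.56, 5.01 and 7.12 FPKM in cold leaves (log2 change −1.57, limma adjusted p = 0.0398). The lincRNA locus XLOC_025736 (LNC_000690) fell from 9.30, 14.0 and 14.5 FPKM to 5.09, 4.79 and 4.33 FPKM (log2 change −1.37, adjusted p = 0.0423). In both, every cold library lay below every control library. The antisense locus XLOC_018666 (LNC_000489) fell from 4.38, 7.25 and 6.78 FPKM to 2.49, 1.80 and 1.76 FPKM (log2 change −1.54, adjusted p = 0.0417). The smallest fall, that of the antisense locus XLOC_016980 (LNC_000436), was from 2.71, 2.30 and 2.60 FPKM to 1.11, 1.15 and 1.24 FPKM (log2 change −1.06, adjusted p = 0.0466). The libraries of each group lay close together there.

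Other antisense loci with 1 transcript also fell. XLOC_005810 (LNC_000105) fell from 6.43, 5.65 and 6.84 FPKM to 2.89, 2.04 and 2.62 FPKM (log2 change −1.30, limma adjusted p = 0.0417), and XLOC_053697 (LNC_001374) from 1.44, 1.31 and 1.49 FPKM to 0.142, 0.193 and 0.368 FPKM (log2 change −2.23, adjusted p = 0.0398). Among loci with several transcripts, the lincRNA locus XLOC_047016 was the only one that rose, from 0.490, 0.296 and 0.201 FPKM to 1.46, 1.52 and 1.09 FPKM (log2 change 1.81, adjusted p = 0.0417). The antisense locus XLOC_017564, with 3 transcripts, fell from 1.17, 1.04 and 1.09 FPKM to 0.419, 0.399 and 0.413 FPKM (log2 change −1.23, adjusted p = 0.0417). XLOC_013548, with 7 transcripts of both classes, fell from 2.43, 2.03 and 1.89 FPKM to 0.777, 0.547 and 0.780 FPKM (log2 change −1.47, adjusted p = 0.0398).

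Of the 35 called loci, 27 had 1 listed transcript and 8 had several. Of the 27, 23 were not called as transcripts, where their adjusted p-values were 0.051 to 0.0829, and the values of these loci are the same in both fits. The adjusted p-values of the 35 ran from 0.0148 to 0.0466 and 31 of them lay above 0.035. With quantile normalization 4 loci were called, with a pseudocount of 0.01 FPKM 3, and with a mean of at least 1 FPKM 22, while median-ratio scaling called 40, 20 up and 20 down. Without control replicates 1, 2 and 3 limma called 8, 6 and 0 loci, and without cold replicates 1, 2 and 3 it called 0, 1 and 3, the counts of 0 with 211 and 219 at an unadjusted p under 0.05.

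Transcripts of a locus did not always share its change. XLOC_022039 has 4 listed antisense transcripts and fell in sum from 11.6, 9.24 and 9.49 FPKM to 3.75, 2.85 and 3.72 FPKM (log2 change −1.53, limma adjusted p = 0.0398). LNC_000574, described above, and LNC_000572 made up most of that sum. LNC_000572 stood at 5.22, 3.37 and 5.04 FPKM in control and 2.19, 1.72 and 2.31 FPKM in cold libraries (log2 change −1.08, adjusted p = 0.0986). LNC_000571 exceeded 0.001 FPKM in 1 library, control replicate 1 (0.626 FPKM). The fourth, LNC_000573, was below the limit for testing.

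XLOC_053929, the lincRNA locus of LNC_001381, was not called in sum (log2 change −1.01, limma adjusted p = 0.0608), although its summed values, 7.10, 5.64 and 6.61 FPKM in control and 3.06, 2.71 and 3.75 FPKM in cold leaves, did not overlap. LNC_001382 stood at 2.00, 1.73 and 1.53 FPKM against 1.18, 1.04 and 1.18 FPKM (log2 change −0.58, adjusted p = 0.229). LNC_001383 stood at 3.06, 2.00 and 2.75 against 1.54, 1.60 and 2.31 FPKM and overlapped between the groups (log2 change −0.50, adjusted p = 0.358). Of the 3 transcripts only LNC_001381 was called.

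XLOC_040888, an antisense locus with 2 transcripts, fell in sum from 1.33, 1.24 and 1.31 FPKM to 0.248, 0.0564 and 0.0425 FPKM (log2 change −2.81, limma adjusted p = 0.0398). Neither transcript was called alone, LNC_001077 at 1.03, 0.541 and 0.966 against 0.248, 0.0564 and 0.0425 FPKM and LNC_001078 at 0.293, 0.695 and 0.348 FPKM against under 0.001 FPKM in every cold library (adjusted p = 0.0774 each). In control libraries the sum ran from 1.24 to 1.33 FPKM, a narrower range than that of either transcript. This locus was named after its values were seen.

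Of 191 loci with 2 or more tested transcripts, 102 had changes of both signs, 9 had all transcripts separated in the same direction, and 7 had a transcript separated upwards and another downwards. For the 583 tested transcripts of loci with 2 or more listed, 362 changes were below 0 and 221 above, and 18.2% were separated. How many such loci scatter alone would give was not tested. XLOC_019310 was among the 7, and LNC_000498 in it was named after its values were seen. In XLOC_019310, LNC_000498 stood at 1.11, 1.55 and 2.39 FPKM in control and 0.815, 0.000385 and 0.905 FPKM in cold libraries, while LNC_000499 was near 0 in control and present in cold libraries. Their sum hardly moved, at 1.11, 1.55 and 2.39 against 1.16, 2.10 and 1.61 FPKM (log2 change −0.023, 95% interval −0.87 to 0.82). In control leaves LNC_000498 made up nearly all of the locus, and in cold replicate 2 LNC_000499 did.

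XLOC_056551, with 8 listed lincRNA transcripts, also held transcripts separated in opposite directions and was named after its values were seen. LNC_001441 stood at 0.811, 1.06 and 0.862 FPKM in control libraries and at 0.305 and 0.391 FPKM in cold replicates 1 and 3, and was near 0 in cold replicate 2. LNC_001444 stood at 0.409, 0.00524 and 0.245 against 0.670, 1.25 and 0.758 FPKM. The summed locus had a log2 change of −0.026 (95% interval −0.61 to 0.56), and none of these transcripts was called alone.

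**Figure D4:**
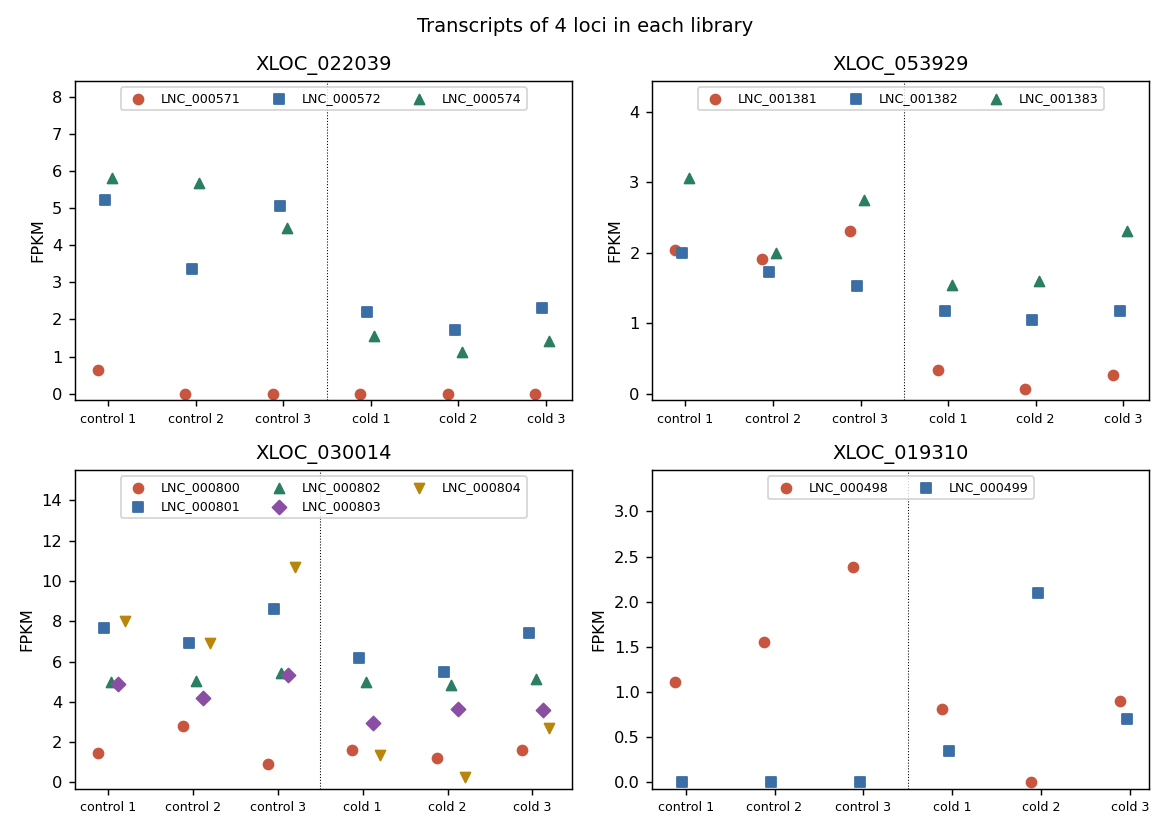
FPKM (linear axes) in each of the 6 libraries of the tested transcripts of XLOC_022039, XLOC_053929, XLOC_030014 and XLOC_019310, with a dotted line between control and cold. In XLOC_022039, LNC_000572 and LNC_000574 are both lower in the cold, in XLOC_030014 LNC_000804 is lower while LNC_000802 stays between 4.85 and 5.42 FPKM, and in XLOC_019310 LNC_000499 is at 0.347 to 2.10 FPKM in cold and near 0 in control libraries.

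The widest gap between transcripts of a locus that both averaged at least 1 FPKM was in XLOC_036460, an antisense locus with 6 listed transcripts. LNC_000983 stood at 2.41, 1.41 and 1.13 FPKM in control and 0.780, 0.00488 and 2.73 FPKM in cold libraries, and LNC_000984 at 0.000246, 0.119 and 2.22 against 2.47, 3.02 and 0.0363 FPKM. Neither separated the groups: their log2 changes, −1.39 and 1.47, lay 2.86 apart. LNC_000984 varied widely within both groups and LNC_000983 within the cold group, while its control values ran from 1.13 to 2.41 FPKM. In control replicate 1 and cold replicate 3 LNC_000983 was high and LNC_000984 low, and in cold replicates 1 and 2 the reverse held.

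The gap was 2.84 in XLOC_030014, the lincRNA locus of LNC_000804. Its other 4 transcripts were closer to their control level, with log2 changes of −0.10 for LNC_000800, −0.29 for LNC_000801, −0.04 for LNC_000802 and −0.49 for LNC_000803. LNC_000802 was measured at 4.96, 5.01 and 5.42 FPKM in control and 4.97, 4.85 and 5.14 FPKM in cold libraries. The lower sum of the locus, 27.0, 25.9 and 31.0 against 17.1, 15.5 and 20.5 FPKM, was not called (log2 change −0.66, limma adjusted p = 0.126).

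Transcripts listed at 0 throughout one group and above 0 throughout the other were rare. Of 1485 listed, 52 were at 0 in all control and 57 in all cold libraries, 43 of them in all 6, and 0 were at 0 in a whole group with at least 0.5 FPKM in every library of the other. The count stayed at 0 in both directions when values under 0.001 FPKM were taken as 0. With no minimum, 1 was at 0 in every control and above 0 in every cold library, and 2 the other way, named here after their values were seen. LNC_000241 (XLOC_011749, lincRNA) stood at 0.426, 0.194 and 0.768 FPKM in the cold (limma adjusted p = 0.0854). LNC_001400 (XLOC_054534, antisense) stood at 0.400, 0.285 and 0.134 FPKM in control libraries, and LNC_001025 (XLOC_038386, antisense) was below 0.1 FPKM in each of them.

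None of the 5 most abundant transcripts listed as lncRNAs was called, and the listed class of the first, LNC_000712, was not checked. LNC_000712 (XLOC_026914) stood at 274258, 531710 and 396453 FPKM in control and 412484, 1170000 and 369909 FPKM in cold libraries, and only cold replicate 2 lay outside the control range (log2 change 0.54, 95% interval −1.64 to 2.72). LNC_001334 (XLOC_052786), the next, was also highest in cold replicate 2, at 30321 FPKM against 12394 to 19228 FPKM in the other 5 libraries (log2 change 0.074, 95% interval −1.22 to 1.37). LNC_000283 (XLOC_012950) was highest in that library too, with 5820 FPKM in cold replicate 2, 2372 and 2153 FPKM in the other cold libraries, and 3071, 4227 and 4206 FPKM in control ones.

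The antisense lncRNA LNC_000037 (XLOC_002219) stood at 4567, 6497 and 5287 FPKM in control and 7202, 5749 and 5951 FPKM in cold libraries (log2 change 0.22, 95% interval −0.71 to 1.15). Of the 5 most abundant, LNC_000396 (XLOC_015935) alone had groups that did not overlap, at 2526, 5431 and 3340 FPKM in control and 1524, 1101 and 2278 FPKM in cold libraries (log2 change −1.19, SE 0.463, limma adjusted p = 0.176). Among all 97 lncRNAs of 10 FPKM or more, 4 (4.12%) were separated upwards and 13 (13.4%) downwards, beside 7.8% and 12.1% of all tested lncRNAs. Of the 97, 72 overlapped between the groups, while 420 of all 1359 (30.9%) did not overlap. These differences were not tested.

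**Figure D5:**
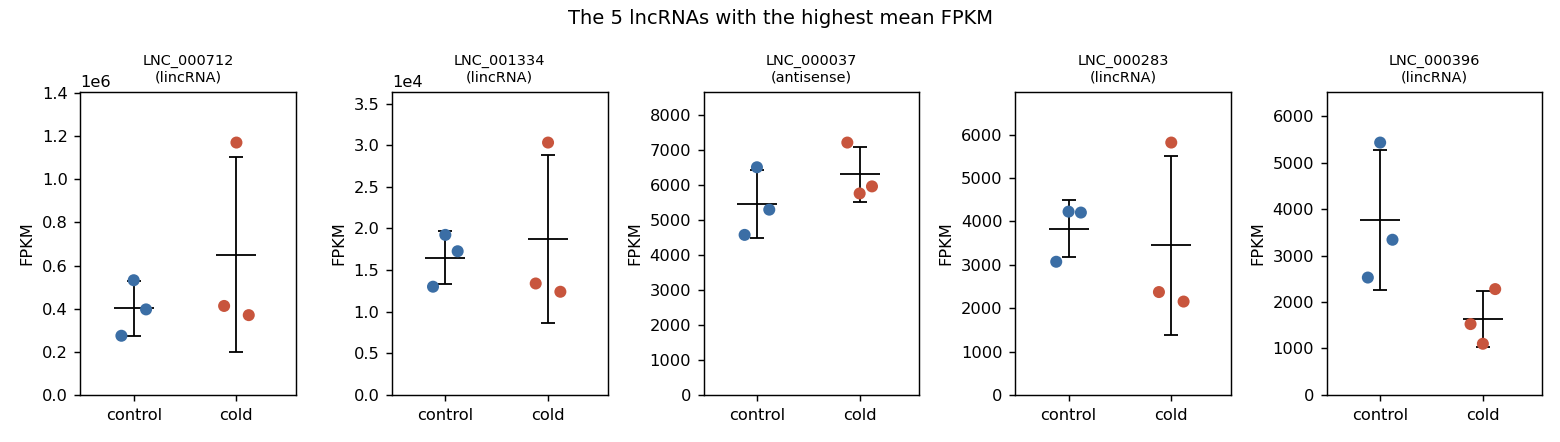
FPKM (linear axes from 0) of the 5 lncRNAs with the highest mean, with 1 point per library, the mean of 3 as a long dash and bars of 1 SD. LNC_000712, LNC_001334 and LNC_000283 each have their highest value in cold replicate 2, and in LNC_000396 the cold libraries, 1101 to 2278 FPKM, lie below the control libraries, 2526 to 5431 FPKM.

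A change of 2-fold or more lay outside the 95% interval for 157 lncRNAs (11.6%), whose intervals of the log2 change ran within −1 to 1. That count was 936 with a pseudocount of 1 FPKM and 53 to 104 with a library left out, lowest without cold replicate 1. The 157 made up 6.45% of lncRNAs under 1 FPKM, 18.6% from 1 to 10 FPKM and 20.6% at 10 FPKM or more. Among those of at least 1 FPKM the narrowest intervals of lincRNAs were those of LNC_000802, given above (−0.58 to 0.50), and LNC_000758 (XLOC_028571; −0.22 to 0.87), which stood at 22.8, 22.5 and 21.9 FPKM in control and 28.1, 25.4 and 30.9 FPKM in cold libraries. Those of antisense lncRNAs were LNC_001130 (XLOC_043508; −0.33 to 0.75), at 4.73, 4.57 and 4.85 against 5.60, 5.11 and 5.75 FPKM, and LNC_000822 (XLOC_030733; −0.65 to 0.47), at 4.01, 4.56 and 4.41 against 3.64, 4.20 and 4.33 FPKM. LNC_000758 and LNC_001130 were slightly higher in every cold library than in any control library, by less than 2-fold. Median-ratio scaling moved their log2 changes from 0.32 and 0.21 to 0.51 and 0.39. Those of LNC_000802 and LNC_000822 moved from −0.04 and −0.09 to 0.14 and 0.08. The intervals above are those without scaling.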

How the data were processed

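The authors deposited, for each library, a table of transcript identifier, locus identifier, lncRNA class and FPKM value. The tools named in the submitters' processing notes are Cufflinks 2.1.1 and TopHat2 2.0.9. Per the labels' protocols, ribosomal RNA was removed and directional libraries were made. The genome build, the settings, the use of strand and the lncRNA filter were not given in the sources used here. Reads of a gene and of its antisense partner may therefore be mixed. FPKM was used as deposited, since it showed no common step of whole reads (at most 7.35% of low values shared a ratio between 2 libraries, within 0.002 on the natural log scale). The fit kept transcripts averaging at least 0.1 FPKM over these 6 libraries; the 6 Kongyu131 libraries were not used here. limma 3.58.1 in R 4.3.3, with a variance trend, was fitted to log2(FPKM + 0.1) of the 6 libraries, two-sided, with Benjamini-Hochberg adjustment over all 1359 transcripts, or over 981 loci for sums. The procedure was tested on simulated data. Alternatives were other pseudocounts, filters and scalings, no trend, a replicate block, sole transcripts of a locus, values under 0.001 FPKM as 0, and leaving out each library. The members and lists were chosen with earlier results of these data known. Named transcripts are, per class, those with the largest changes, called or separated, without overlap and with at least 1 FPKM in the higher group. Also named are the 5 most abundant, transcripts of loci with a call or a wide gap, and the narrowest intervals within −1 to 1. Others are marked in the text.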

Additional observations from a re-analysis of the deposited data

How the results depend on the processing

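The count of called lncRNAs (7, with 2 up and 5 down) was 3 with a pseudocount of 0.01 FPKM (1 down), 14 with no filter on low values (7 up), 14 with no variance trend (5 up, 9 down), and 18 with sole transcripts of a locus (8 up, 10 down). A filter at a mean of 1 FPKM and median-ratio scaling each left 3 falls. Summing by locus gave 35 (12 up, 23 down), of which 6 of the 7 calls had their locus called. With 1 library left out the count ran from 0 to 5, with 0 to 3 up and 0 to 2 down.

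Correlations of deviations were −0.079, −0.015 and 0.047 for same-numbered libraries and −0.083 to 0.108 for differently numbered ones. They show no pairing by replicate number but cannot exclude it, and the labels do not say. With a replicate block limma called 0 lncRNAs and 0 loci, 0 up and 0 down (281 and 245 at an unadjusted p under 0.05), with 80 intervals within −1 to 1. The 35 called loci became 3 with a pseudocount of 0.01 FPKM (2 up, 1 down), 22 at a mean of 1 FPKM (13 down) and 4 with quantile normalization (2 up, 2 down). Median-ratio scaling gave 20 up, and 32 of the 35 were kept. Leaving out a library gave 0 to 8 loci, with 0 to 4 in each direction. At an adjusted p under 0.1, 97 lncRNAs passed.

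Separated lncRNAs numbered 56 with a pseudocount of 1 FPKM (22 up, 34 down), 111 at a mean of 1 FPKM (41 up, 70 down) and 165 among sole transcripts (92 down). Intervals within −1 to 1 numbered 936 with a pseudocount of 1 FPKM, and 53 to 104 with a library left out. The median log2 change was −0.079 with a pseudocount of 1 FPKM, −0.086 at a mean of 1 FPKM, 0.0024 with median-ratio scaling, −0.018 with quantile normalization, −0.10 for sole transcripts, and −0.23 to −0.12 without a library. No called change reversed its sign. Where fewer samples or features entered, the construction sets part of the shift, and otherwise the cause was not tested. Depth is unknown, so no counting error can be given for low values.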

Other observations

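Very small values were common in these tables. Between 85 and 140 transcripts of a library were above 0 but under 0.001 FPKM, 85 to 98 in control and 110 to 140 in cold libraries, with no overlap between the groups. With such values taken as 0, 4 antisense lncRNAs were at 0 throughout one group and at 0.2 FPKM or more in every library of the other. LNC_000499 and LNC_000681 (XLOC_025447) were at 0 in control leaves in that sense, the latter with 0.539, 0.292 and 0.454 FPKM in the cold. LNC_000649 (XLOC_024174) and LNC_001078 were at 0 in the cold, the former after 0.217, 0.217 and 0.526 FPKM in control libraries. These lncRNAs were chosen after their values were seen, and none was called.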
